A study of Homo sapiens with 4 samples.

Results

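The mitochondrial genome encodes 37 genes, and all of them have a row in the count table. They were taken by name, as every row whose symbol begins with MT-, so their values played no part in the choice. They are 37 of 57992 genes: 13 mRNAs, 2 rRNAs and 22 tRNAs. The mRNAs are counted by gene, although MT-ATP8 and MT-ATP6 share an mRNA, as do MT-ND4L and MT-ND4. All 37 identifiers have an entry on the mitochondrial chromosome (chrM, GRCh38) in GENCODE release 29, where each is a gene without introns.

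The cells were MOLM13, a human line with a KMT2A fusion, established from acute myeloid leukaemia. The labels call them VEN-R, that is, resistant to venetoclax, an inhibitor of the survival protein BCL2. A short hairpin RNA (shRNA) against PRMT9, an arginine methyltransferase, was set against a control shRNA, with 2 libraries each and doxycycline given to both groups to induce the hairpin. The labels do not say whether the replicates were separate cultures, how many PRMT9 hairpins were used or how long they were induced, and no parental MOLM13 library was analysed here. All p-values therefore measure the spread between these libraries, which may be technical. RNA was captured by its poly(A) tail.

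Human mitochondrial DNA is transcribed in both directions as long precursors. The transcript that starts at the heavy-strand promoter holds both rRNAs, most tRNAs and nearly all mRNAs, while the opposite transcript, from the light-strand promoter, holds the mRNA of MT-ND6 and a minority of the tRNAs. The tRNAs lie between the other genes and are cut out of the precursor, after which mRNAs and rRNAs receive short tails from the poly(A) polymerase MTPAP and the LRPPRC-SLIRP complex stabilizes mRNAs. MT-ND6 is known for carrying little or no tail, and mature tRNAs carry CCA, so capture through the tail samples the classes unequally and levels cannot be compared between classes as amounts of molecules. Every mRNA encodes a core subunit of the oxidative phosphorylation system, on which leukaemia cells resistant to BCL2 inhibition have been described to depend.

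The libraries held 30764403 and 33845172 counts for PRMT9 shRNA, against 30329901 and 28592902 for control shRNA. PRMT9 itself had 81 and 78 counts in PRMT9 shRNA libraries, against 398 and 406 in control shRNA libraries, which left 17.9% of the control level (log2 fold change -2.48 ± 0.12 SE). Of 15193 genes tested with edgeR's quasi-likelihood test, 67.9% passed an adjusted p of 0.05, 33.4% as higher and 34.5% as lower with PRMT9 shRNA. In 83.3% of them the groups did not overlap in CPM, the count scaled to library size, so a call or a gap between groups was the usual state of a gene here. All 12 markers of myeloid cells were detected: 11 were called higher and MPO lower, and their summed level was 2612 and 2608 CPM in PRMT9 shRNA libraries, against 1812 and 1798 CPM in control shRNA libraries. CSF1R had a log2 fold change of 1.86 and ITGAM of 1.83. The lymphoid list summed to 26.9 and 28.1 CPM against 15.8 and 14.8 CPM, almost all of it NKG7, with CD3D, CD3E and MS4A1 at 4 counts or fewer in every library. The epithelial and stromal list summed to 37.2 and 36.2 CPM against 27.6 and 28.0 CPM, with EPCAM and KRT19 at 0 in every library. Of its 7 genes, 3 were tested and 2 of them called higher (median log2 fold change 0.66), so the list was not absent. Of the erythroid markers, 5 of 6 were at 0 in every library and KLF1 had 2 counts in all. The part of these marker differences in the mitochondrial values was not tested.

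The strand of origin is visible in the sequence. MT-ND6 and MT-ND5 lie end to end and are transcribed towards each other, and their first 90 bases are shown with guanines in capitals (RNA-sense strand, written as DNA, GENCODE release 29, GRCh38). MT-ND6 lies on the minus strand of the record, where its first bases are chrM:14584-14673, and MT-ND5 on the plus strand at chrM:12337-12426.
MT-ND6: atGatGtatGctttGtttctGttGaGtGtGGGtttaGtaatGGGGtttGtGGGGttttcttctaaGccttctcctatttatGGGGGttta
MT-ND5: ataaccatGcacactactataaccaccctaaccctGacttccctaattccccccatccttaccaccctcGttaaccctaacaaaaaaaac
Over its whole length MT-ND6 was 35.6% guanine and 7.05% cytosine. The 12 heavy-strand mRNAs held 6.28% to 16.2% guanine, with a median of 11.2%, and 29.5% to 36.0% cytosine, with a median of 33.4%.

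Mitochondrial transcripts took a slightly smaller part of the PRMT9 shRNA libraries. All 37 genes together made up 6.97% and 7.06% of the counts in PRMT9 shRNA libraries, against 7.40% and 7.28% in control shRNA libraries, a difference of -0.33 percentage points between means of 7.01% ± 0.0618 and 7.34% ± 0.0899 (SD, n = 2 each). The groups did not overlap, and the 95% Wilson interval of each library's share was at most 0.0190 percentage points wide, which covers counting error only. An exact two-sided permutation test gave p = 0.333, the smallest that 2 libraries against 2 allow, so the shares are given as values. Measured against the counts of nuclear protein-coding genes, the 37 genes stood at 7.65 and 7.75 per 100 with PRMT9 shRNA and at 8.15 and 7.99 per 100 with control shRNA. In such bulk libraries fewer mitochondrial genomes, less RNA from each and a change in the nuclear RNA they are scaled to cannot be told apart.

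Within that share the classes differed in direction. The 12 heavy-strand mRNAs took 5.42% and 5.49% of PRMT9 shRNA libraries, against 5.98% and 5.82% of control shRNA libraries, a ratio of 0.925. MT-ND6 took 0.0173% and 0.0150% against 0.0244% and 0.0258%, a ratio of 0.645. The 2 rRNAs took more with PRMT9 shRNA, 1.53% and 1.55% against 1.39% and 1.43%. Among mitochondrial counts alone, mRNAs thus made up 78.0% in each PRMT9 shRNA library, against 81.1% and 80.3% in control shRNA libraries. The tRNAs took between 0.00454% and 0.00520% in all 4 libraries, and there the groups overlapped.

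**Figure D1:**
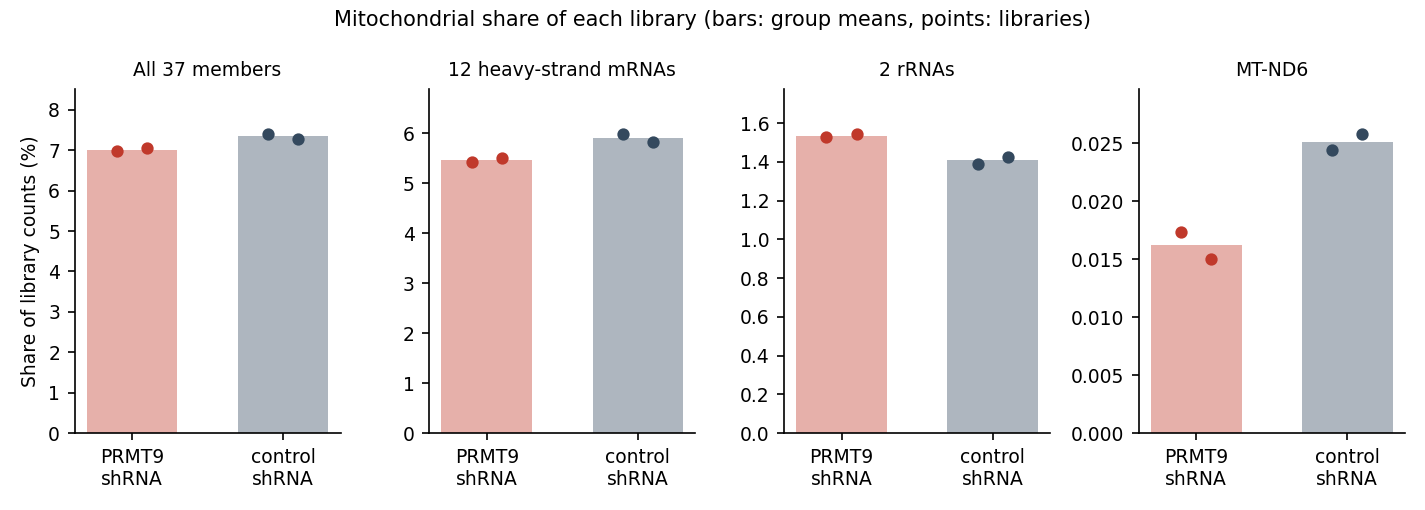
Share of all library counts, in percent, taken by the 37 mitochondrial genes, the 12 heavy-strand mRNAs, the 2 rRNAs and MT-ND6, with a separate vertical scale in each panel. Bars are means of 2 libraries and points are libraries; PRMT9 shRNA libraries lie below control shRNA libraries in every panel except that of the rRNAs.

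Gene by gene, 25 of the 37 passed the filter on low counts: all mRNAs, both rRNAs and 10 tRNAs. Of these 25, 3 were called higher with PRMT9 shRNA (MT-RNR2, MT-TT and MT-TP), 12 were called lower, and 10 did not pass, where 33.4% of all genes tested were called higher and 34.5% lower. The mRNAs carried most of the lower calls, 11 of 13, and the lowest count of any mRNA in any library was 2389, so none of them passed the filter through only one group. The groups did not overlap for 21 of the 25, a share close to the 83.3% of all genes. The changes were small: the median log2 fold change of the mRNAs was -0.18. With the sign left aside, the median over all genes tested was 0.40, and over called genes 0.52. The signed median of all genes was 0.00, which gives direction and not size. Scaling to the 12 heavy-strand mRNAs sets their common change to 0 by construction, so under it each of them stands relative to their sum. It raises the median of all genes by 0.13 and turns the split of all genes to 6239 higher and 4013 lower. Of the 13 mRNAs it leaves 4 lower and 2 higher, and upper-quartile scaling leaves 7 lower and 2 higher.

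**Figure D2:**
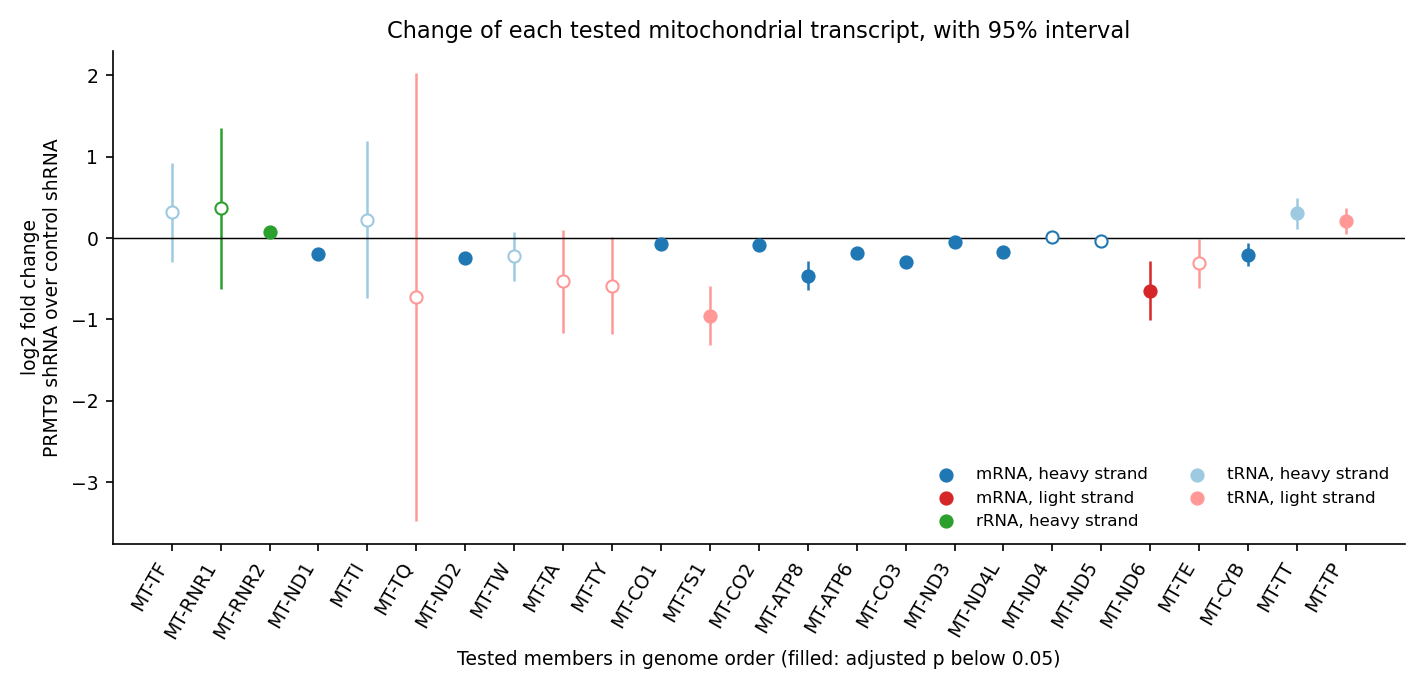
Log2 fold change of the 25 tested mitochondrial transcripts, PRMT9 shRNA over control shRNA, in genome order, with 95% intervals from edgeR; filled points have an adjusted p below 0.05. Heavy-strand mRNAs lie between -0.30 for MT-CO3 and 0.01 for MT-ND4, apart from MT-ATP8 at -0.46. The lowest values are those of light-strand transcripts: MT-TS1 at -0.95, MT-TQ at -0.73 (not called) and MT-ND6 at -0.65. MT-TP, of the same strand, stands at 0.21.

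Levels per length spanned more than an order of magnitude and kept nearly the same order in both groups. On the scale of the deposited RPKM (reads scaled to gene length and library size), MT-CO1, the catalytic subunit of cytochrome c oxidase, was highest at 9623 ± 83.3 with PRMT9 shRNA and 10154 ± 104 with control shRNA, and MT-ND6 was lowest at 306 ± 29.9 and 481 ± 29.3 (SD, n = 2 each). The highest mean was 31.4 times the lowest in PRMT9 shRNA libraries and 21.1 times in control shRNA libraries. The order by mean RPKM with PRMT9 shRNA was MT-CO1, MT-RNR2, MT-CO3, MT-CO2, MT-ND1, MT-ND4, MT-ATP6, MT-ND2, MT-CYB, MT-ND5, MT-ND3, MT-RNR1, MT-ND4L, MT-ATP8 and MT-ND6. Among the neighbours in it, the libraries overlapped only for MT-RNR1 and MT-ND4L. MT-RNR2 and MT-CO3 stood in the reverse order in control shRNA libraries, as did MT-RNR1 and MT-ND4L. By counts, MT-CO1 ranked 2 and MT-RNR2 ranked 3 among all genes in every library, and 7 mitochondrial genes were among the 20 with most reads in each PRMT9 shRNA library, against 10 in each control shRNA library.

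**Figure D3:**
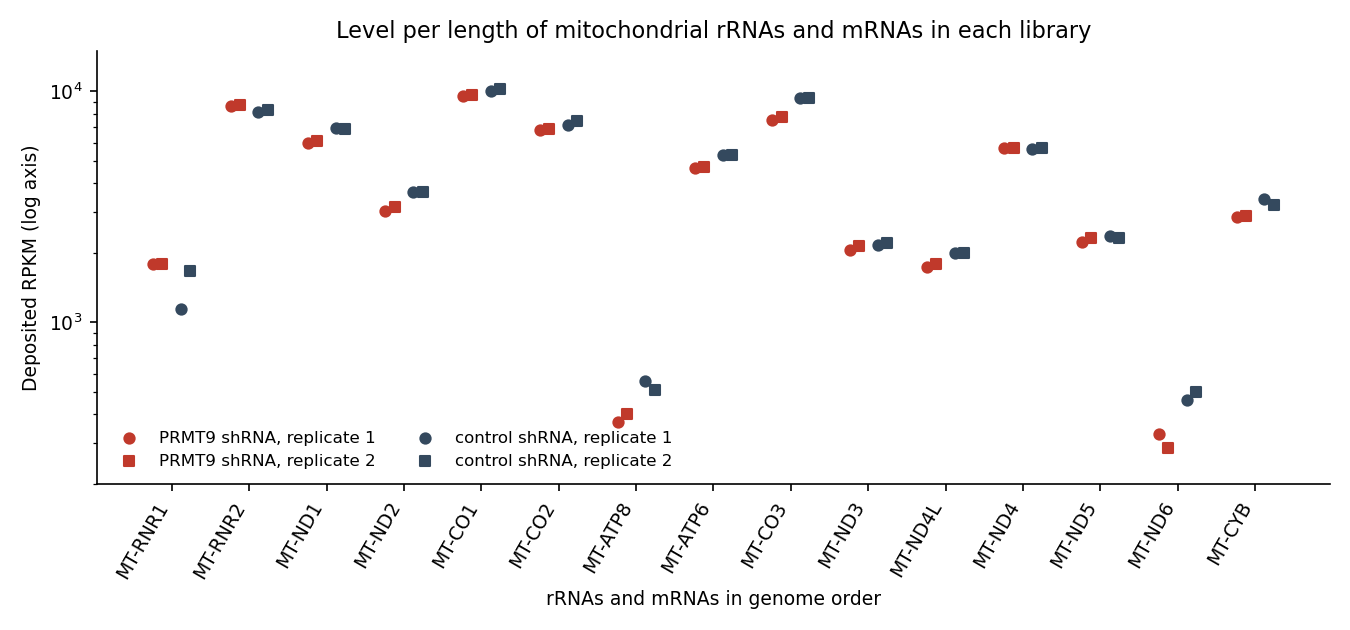
Deposited RPKM of the 13 mRNAs and 2 rRNAs in each library, in genome order, on a log axis; PRMT9 shRNA libraries stand left of control shRNA libraries for each gene. The 2 groups separate widely for MT-ND6 and MT-ATP8 and lie together for MT-ND4, and the control shRNA libraries lie far apart from each other for MT-RNR1.

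The 3 mitochondrially encoded subunits of complex IV, cytochrome c oxidase, fell unequally. MT-CO3, a structural core subunit, had an RPKM of 7493 and 7749 in PRMT9 shRNA libraries, against 9357 and 9411 in control shRNA libraries. It fell by 18.6% (log2 fold change -0.30 ± 0.02 SE, adjusted p 2.71e-11), and it stayed lower under every alternative, with or without any library. MT-CO1 had an RPKM of 9564 and 9682 against 10080 and 10227, and MT-CO2, which receives electrons from cytochrome c, had 6837 and 6855 against 7162 and 7442. Both were slightly lower, at -0.07 (adjusted p 0.000306) and -0.09 (adjusted p 9.28e-05), but MT-CO1 stood at 0.01 under upper-quartile scaling and 0.05 when scaled to the heavy-strand mRNAs, and MT-CO2 at -0.0015 (adjusted p 0.939) and 0.04 under the same scalings. Neither passed in every fit without a filter on low values (adjusted p 0.0772 for MT-CO1 on counts and 0.0799 for MT-CO2 on log2 RPKM). The ratio of MT-CO3 to MT-CO1 per length, which depends on no scaling between libraries, was 0.783 and 0.800 with PRMT9 shRNA, against 0.928 and 0.920 with control shRNA. The ratio of MT-CO2 to MT-CO1 was 0.715 and 0.708 against 0.711 and 0.728 and overlapped between groups.

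The mRNAs of complex I, NADH dehydrogenase, differed among themselves. MT-ND2 fell (RPKM 3033 and 3154 with PRMT9 shRNA, against 3666 and 3660 with control shRNA; log2 fold change -0.24 ± 0.02 SE, adjusted p 2.33e-09). MT-ND1 also fell (5960 and 6100 against 6961 and 6865, log2 fold change -0.19, adjusted p 3.03e-08). So did MT-ND4L (1730 and 1798 against 1996 and 1992, log2 fold change -0.17, adjusted p 1.06e-06). Both calls ended when libraries were scaled to the heavy-strand mRNAs, at -0.07 and -0.05. That scaling takes out the common change of these mRNAs, so it shows only a change relative to them. MT-ND2, MT-ND1 and MT-ND4L all encode membrane subunits of the complex. The other 3 heavy-strand members of the complex barely differed. MT-ND4 had an RPKM of 5669 and 5709 against 5652 and 5674, with overlapping groups, and a log2 fold change of 0.01 (95% interval -0.03 to 0.04, adjusted p 0.638), but it was called higher under 3 alternatives, at 0.10 with upper-quartile scaling, 0.14 when scaled to the heavy-strand mRNAs and 0.04 with a filter at 1 CPM. MT-ND5 stood at -0.04 (95% interval -0.08 to 0.01, adjusted p 0.112), with 4065 and 4197 CPM against 4322 and 4159 CPM, which overlap. It stood at 0.05 and 0.09 under the upper-quartile and heavy-strand scalings, both called higher, and at -0.05 without control shRNA replicate 2. MT-ND3 was called lower at -0.05 (RPKM 2059 and 2137 against 2155 and 2210; adjusted p 0.0268), but it did not pass under 12 of 16 alternatives and stood at 0.03 and 0.07 under the upper-quartile and heavy-strand scalings. MT-ND6, the only light-strand mRNA, fell most and is described with its strand.

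MT-CYB, the cytochrome b of complex III and its only mitochondrially encoded subunit, had an RPKM of 2866 and 2894 in PRMT9 shRNA libraries, against 3423 and 3217 in control shRNA libraries. The groups did not overlap and it was called lower (-0.20 ± 0.05 SE, adjusted p 0.0274). The call ended without PRMT9 shRNA replicate 1 (adjusted p 0.0531), under upper-quartile scaling (-0.11) and under scaling to the heavy-strand mRNAs (-0.08).

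The 2 subunits of complex V, the ATP synthase, are read from a shared mRNA in which the end of MT-ATP8 overlaps the start of MT-ATP6. The whole of MT-ATP8 is 207 bases (chrM:8366-8572, plus strand), and the 46 bases it shares with MT-ATP6 are in capitals.
MT-ATP8: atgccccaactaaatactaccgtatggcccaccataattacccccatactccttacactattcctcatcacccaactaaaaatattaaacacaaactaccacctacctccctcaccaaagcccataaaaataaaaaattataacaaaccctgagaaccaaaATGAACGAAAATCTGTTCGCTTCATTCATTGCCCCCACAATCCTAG
MT-ATP6, the proton channel subunit, had an RPKM of 4648 and 4685 with PRMT9 shRNA, against 5296 and 5331 with control shRNA, and fell (-0.18 ± 0.02 SE, adjusted p 1.47e-08), a call that ended only under scaling to the heavy-strand mRNAs (-0.06). MT-ATP8, a small subunit beside it, had 372 and 402 against 559.6 and 509.5, and fell by 27.5% (-0.46 ± 0.07 SE, adjusted p 0.00234) under every alternative. Although they share an mRNA, MT-ATP8 stood at 0.0801 and 0.0859 of MT-ATP6 per length with PRMT9 shRNA, against 0.106 and 0.0956 with control shRNA. MT-ND4L and MT-ND4, which share a second such mRNA and overlap by 7 bases, behaved likewise: the ratio per length was 0.305 and 0.315 against 0.353 and 0.351. In both mRNAs the upstream reading frame stood lower relative to the downstream one with PRMT9 shRNA, and the groups did not overlap. These ratios rest on how reads in shared bases were counted. Of 189 annotated genes lying wholly inside exons of a well-expressed gene (mean count of 1000 or more) on the same strand, 180 had no count at all and 3 reached a mean of 10, whereas of 222 lying opposite such a gene only 48 had none and 38 reached 10. Reads that fell in 2 genes of the same strand were thus mostly left out of the table, so that reads in the shared bases can be missing from both genes in all libraries, and reads were assigned by strand.

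The end of each reading frame varies, too. The last 15 bases of 5 mRNAs are shown, with the stop codon, or the part of it that the gene encodes, in capitals: MT-ND1 and MT-CO3 end in an incomplete codon that the poly(A) tail completes to UAA, MT-ATP6 has a full stop codon, and MT-CO1 and MT-ND6 end in AGA or AGG.
MT-ND1: tccccctcaaaccTA
MT-CO3: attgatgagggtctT
MT-ATP6: cacgacaacacaTAA
MT-CO1: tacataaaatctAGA
MT-ND6: gctcgggggaatAGG
The 6 mRNAs completed by their tail had a median log2 fold change of -0.20, from -0.30 for MT-CO3 to 0.01 for MT-ND4, and 5 of them were called lower. The 5 with a full stop codon had a median of -0.17, and 4 of them were called lower. MT-CO1 and MT-ND6, which end in AGA or AGG, stood at -0.07 and -0.65, both called lower. The values of these kinds overlapped, and 34.5% of all genes tested were called lower.

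MT-ND6 and most tRNAs read from the same precursor had larger negative values than most heavy-strand mRNAs. MT-ND6, a membrane subunit of complex I, had 5332 and 5085 counts in PRMT9 shRNA libraries, against 7398 and 7375 in control shRNA libraries, or an RPKM of 327.5 and 285 against 460.3 and 502. It fell by 36.2% (log2 fold change -0.65 ± 0.10 SE, adjusted p 0.0213), with no overlap between groups. Per 100 reads of the heavy-strand mRNAs there were 0.320 and 0.274 reads of MT-ND6 with PRMT9 shRNA, against 0.408 and 0.443 with control shRNA. The direction held under all 16 alternatives, from -0.75 to -0.52, while the adjusted p was 0.118 with a replicate block and 0.102 without control shRNA replicate 1.

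Of the 8 light-strand tRNAs, 6 could be tested. They are described in the order in which a polymerase that starts at the light-strand promoter meets them, and those on which the description turns are shown with guanines in capitals beside MT-TT, the heavy-strand neighbour of MT-TP: MT-TP at chrM:15956-16023, MT-TE at chrM:14674-14742 and MT-TS1 at chrM:7446-7514, all on the minus strand, and MT-TT at chrM:15888-15953 on the plus strand.
MT-TP: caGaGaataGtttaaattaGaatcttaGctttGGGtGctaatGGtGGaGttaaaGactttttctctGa
MT-TE: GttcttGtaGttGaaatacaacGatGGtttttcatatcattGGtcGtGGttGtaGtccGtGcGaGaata
MT-TS1: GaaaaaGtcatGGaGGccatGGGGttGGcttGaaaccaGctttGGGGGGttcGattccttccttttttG
MT-TT: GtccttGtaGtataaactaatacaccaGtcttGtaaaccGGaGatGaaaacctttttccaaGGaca
MT-TP, the tRNA for proline and nearest to the promoter, was higher with PRMT9 shRNA: 610 and 600 counts against 470 and 474 (19.7 and 17.7 CPM against 15.5 and 16.7 CPM; log2 fold change 0.21 ± 0.08 SE, adjusted p 0.0206). The call ended under 6 of 16 alternatives, among them DESeq2 (adjusted p 0.135) and leaving out PRMT9 shRNA replicate 1 (0.13, adjusted p 0.247) or control shRNA replicate 1 (0.15, adjusted p 0.129). MT-TE, for glutamate, lies between MT-TP and MT-ND6 and had 170 and 137 counts against 183 and 162 (-0.31, adjusted p 0.0654). Its value rests on single libraries: it was -0.55 without PRMT9 shRNA replicate 1, -0.34 without control shRNA replicate 2, and -0.10 without PRMT9 shRNA replicate 2. Beyond MT-ND6, MT-TS1, a tRNA for serine, had 63 and 81 counts against 120 and 131. It was the mitochondrial gene with the largest change among the 25 tested, at -0.95 ± 0.17 SE (adjusted p 7.63e-05), and fell under all 16 alternatives.

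The remaining light-strand tRNAs lie farther along and had low counts. MT-TY, for tyrosine, had 31 and 27 counts with PRMT9 shRNA, against 41 and 38 with control shRNA (-0.59, adjusted p 0.0751). MT-TA, for alanine, had 27 and 29 against 31 and 42 (-0.53, adjusted p 0.127). Its value was -0.78 without control shRNA replicate 1 and -0.23 without control shRNA replicate 2. MT-TQ, for glutamine, had 114 and 97 against 89 and 225 (-0.73, adjusted p 0.460); the groups overlapped, and control shRNA replicate 2 sets the sign, since the value was 0.16 without it and -1.29 without control shRNA replicate 1. MT-TC had at most 3 counts in any library and MT-TN had none. Thus the values were positive for the tRNA nearest the promoter and negative for the 6 tested transcripts beyond it, of which 2 passed the test.

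Ratios within a library need no scaling between libraries, but they restate the same counts and are no separate support. Those to MT-TP take as their base the only light-strand transcript called higher. MT-ND6 had 8.74 and 8.48 reads per read of MT-TP in PRMT9 shRNA libraries, against 15.7 and 15.6 in control shRNA libraries. MT-TS1 had 0.103 and 0.135 reads per read of MT-TP, against 0.255 and 0.276. The groups were far apart in both ratios compared with the spread within them, and an exact permutation test of 2 against 2 cannot give a p below 0.333. The ratio of MT-TP to MT-TT, read from opposite strands of neighbouring genes, was 1.88 and 1.65 against 1.79 and 1.98 and overlapped. MT-TS1 adjoins the end of MT-CO1, an abundant heavy-strand mRNA. It had 13.8 and 16.0 reads per 100000 reads of MT-CO1 with PRMT9 shRNA, against 25.2 and 29.7 with control shRNA. Whether a few reads of heavy-strand RNA were assigned to the wrong strand was not tested.

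**Figure D4:**
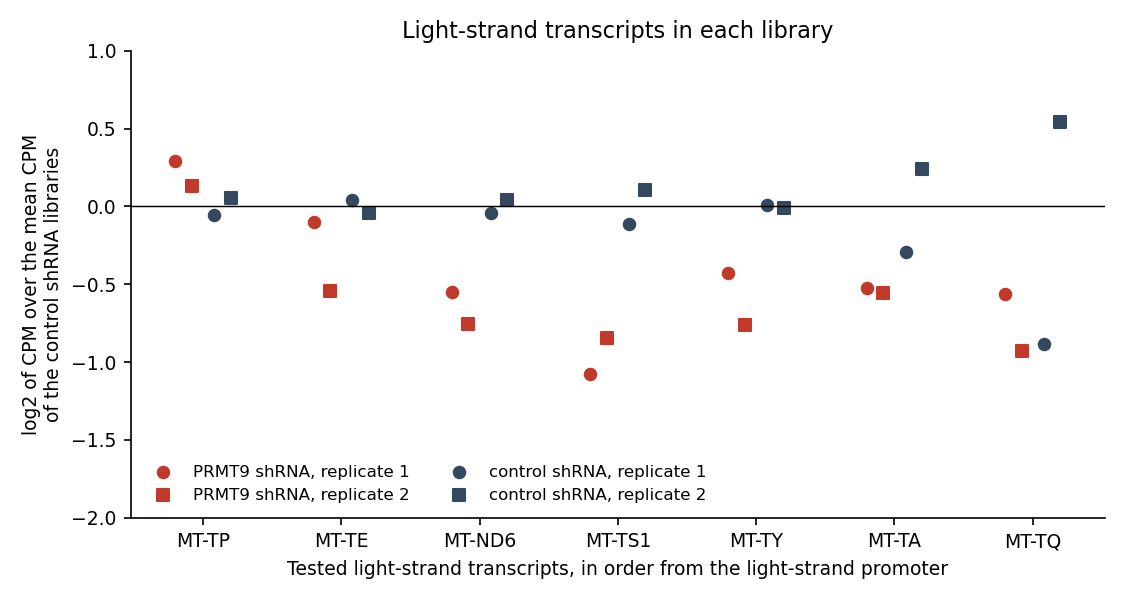
Tested light-strand transcripts in order from the light-strand promoter, as log2 of each library's CPM over the mean CPM of the control shRNA libraries. PRMT9 shRNA libraries lie above both control shRNA libraries for MT-TP and below them from MT-TE to MT-TA; for MT-TQ control shRNA replicate 1 lies between the PRMT9 shRNA libraries and replicate 2 above both.

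The rRNAs took a larger share of the PRMT9 shRNA libraries. MT-RNR2, the 16S rRNA of the large ribosomal subunit, had an RPKM of 8618 and 8773 in PRMT9 shRNA libraries, against 8146 and 8336 in control shRNA libraries, and rose by 0.08 ± 0.02 SE on the log2 scale (adjusted p 0.000173). The call ended without a filter on low counts (adjusted p 0.0753) and on unfiltered log2 RPKM (0.0777). MT-RNR1, the 12S rRNA of the small subunit, had an RPKM of 1797 and 1798 against 1138 and 1666. The groups did not overlap, but the control shRNA libraries lay so far apart that it did not pass (0.36 ± 0.25 SE, adjusted p 0.323). The value was 0.12 without control shRNA replicate 1 and 0.66 without control shRNA replicate 2. Per 100 reads of the 13 mRNAs, MT-RNR2 had 24.91 and 24.93 reads with PRMT9 shRNA, against 21.3 and 21.8 with control shRNA. Per length, MT-RNR1 stood at 0.209 and 0.205 of MT-RNR2 against 0.140 and 0.200, so that the 2 control shRNA libraries differed more from each other than the closer of them did from the PRMT9 shRNA libraries. Since RNA was captured by its poly(A) tail, these values may not reflect all rRNA of the cells. How rRNA entered the libraries was not tested.

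Heavy-strand tRNAs were scarce in poly(A)-captured RNA, and 4 of 14 could be tested. Together they took 0.00166% and 0.00167% of PRMT9 shRNA libraries, against 0.00155% and 0.00145% of control shRNA libraries, and the groups did not overlap. MT-TT held most of these counts: 324 of 510 and 363 of 564, against 262 of 469 and 240 of 415. The summed share therefore mostly follows that 1 gene and does not show a rise of the class. MT-TT, for threonine, which follows MT-CYB at the far end of the heavy-strand transcript, had 324 and 363 counts with PRMT9 shRNA, against 262 and 240 with control shRNA, and rose by 0.31 ± 0.09 SE on the log2 scale (adjusted p 0.00661; adjusted p 0.0936 with DESeq2). MT-TW, for tryptophan, had 132 and 135 counts against 155 and 127 (-0.22, adjusted p 0.175). MT-TF, for phenylalanine and the first gene of the transcript, had 39 and 41 against 35 and 23 (0.32, adjusted p 0.341), a value that ran from 0.11 to 0.59 as single libraries were left out. MT-TI, for isoleucine, had 11 and 19 against 9 and 14 (0.23, adjusted p 0.677), and its sign turned when a library was left out. The 12 untested tRNAs had at most 5 counts in any library; MT-TN, MT-TK, MT-TG, MT-TR and MT-TL2 had none, which at this depth allows a level of up to 0.0975 and 0.0886 CPM in PRMT9 shRNA libraries and of up to 0.0989 and 0.105 CPM in control shRNA libraries. The tRNAs with most reads, MT-TP and MT-TT, adjoin each other at the end of the gene-bearing part of the genome.

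Copies of mitochondrial DNA in the nuclear genome can take up mitochondrial reads. A block on chromosome 1 holds copies of 7 of the genes, of which MTATP6P1 (chr1:633696-634376, GRCh38) is 98.5% identical to MT-ATP6 with 10 mismatches. It had 15929 and 18326 counts in PRMT9 shRNA libraries, against 19328 and 18123 in control shRNA libraries, equal to 16.2 and 16.9 against 17.5 and 17.8 per 100 reads of MT-ATP6. The other 6 copies had at most 0.465 counts per 100 reads of their mitochondrial gene. MTATP6P1 was lower by 0.28 on the log2 scale (adjusted p 1.68e-09), and with all copies added back MT-ATP6 stood at -0.20, with no call of any mitochondrial gene changed.

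The nuclear genes that transcribe, process and partner these RNAs were read from lists. Of 11 genes of mitochondrial transcription, 7 fell and 2 rose. Their median stood at -0.53 on the log2 scale, against 34.5% lower, 33.4% higher and a median of 0.00 over all genes. POLRMT, the mitochondrial RNA polymerase, had 48.9 and 46.8 CPM in PRMT9 shRNA libraries, against 70.1 and 68.1 CPM in control shRNA libraries (-0.53, adjusted p 9.24e-10). TFAM, which bends the promoter and packages the DNA, had 115 and 114 CPM against 178 and 172 CPM (-0.61, adjusted p 2.75e-13), and TFB2M, which opens the promoter, had 53.9 and 58.5 CPM against 81.6 and 81.5 CPM (-0.54, adjusted p 5.22e-10). POLDIP2 was lower by 0.80 on the log2 scale. TEFM, the elongation factor, had 15.9 and 16.1 CPM against 17.0 and 17.3 CPM and did not pass (-0.10, adjusted p 0.237). The MTERF family of mitochondrial DNA- and RNA-binding proteins was split. MTERF2 and MTERF4 rose by 0.58 and 0.49, MTERF3 fell by 0.81, and MTERF1 did not pass (-0.09).

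Beside the following counts stand 34.5% lower and 33.4% higher among all genes tested. Of 28 genes that process, polyadenylate or degrade mitochondrial RNA, 22 fell, 1 rose and 5 did not pass (median -0.31). The riser was LRPPRC, with 705 and 720 CPM in PRMT9 shRNA libraries, against 601 and 622 CPM in control shRNA libraries (0.22, adjusted p 2.39e-08), while SLIRP, its partner, fell, with 27.5 and 27.1 CPM against 40.8 and 38.0 CPM (-0.53, adjusted p 2.94e-08). MTPAP fell, with 43.3 and 46.5 CPM against 59.8 and 55.4 CPM (-0.36, adjusted p 2.06e-06). PNPT1, the exonuclease of the mitochondrial degradosome, fell by 0.91, PDE12, which removes poly(A) tails, by 1.04, and FASTKD5, which helps to free mRNAs that no tRNA borders, by 1.2. Of 26 genes that modify mitochondrial rRNA or tRNA, 14 fell and 4 rose (median -0.23). TRNT1, which adds the CCA end to tRNAs, fell by 0.98, the pseudouridine synthase PUS1 by 0.65 and the methyltransferase NSUN2 by 0.43. Of 24 genes of mitochondrial DNA replication and maintenance, 17 fell and 5 rose (median -0.33). They include the nucleases FEN1, lower by 1.14, and DNA2, lower by 1.13, and the helicase Twinkle (C10orf2 in the table), lower by 0.86.

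The nuclear-encoded subunits that join the mitochondrially encoded ones gave similar counts, where 34.5% of all genes tested fell and 33.4% rose. For complex I, 5 of 7 core subunits fell, 1 rose and 1 did not pass (median -0.41). Among those that fell were NDUFS1, by 0.75, and NDUFS8, by 1.09. For complex III, 5 of 9 fell and 2 rose (median -0.12, which is 0.01 when scaled to the heavy-strand mRNAs). There UQCRFS1, the iron-sulfur subunit, fell by 0.62 and UQCRQ by 0.60, while UQCRB rose by 0.20. For complex IV, 10 of 12 fell and none rose (median -0.27), with COX7B lower by 0.47, COX6C by 0.35 and COX5A by 0.29; scaled to the heavy-strand mRNAs, 7 fell and 2 rose. For complex V, 13 of 15 fell and 2 rose (median -0.27), with ATP5G1 lower by 0.59, ATP5E by 0.39 and ATP5F1 by 0.33. These medians stand beside -0.18 for the 13 mitochondrial mRNAs, and their direction held under every scaling tried, with the exception of complex III. The lists were drawn up with earlier results of these data known and were not tested as sets.

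**Figure D5:**
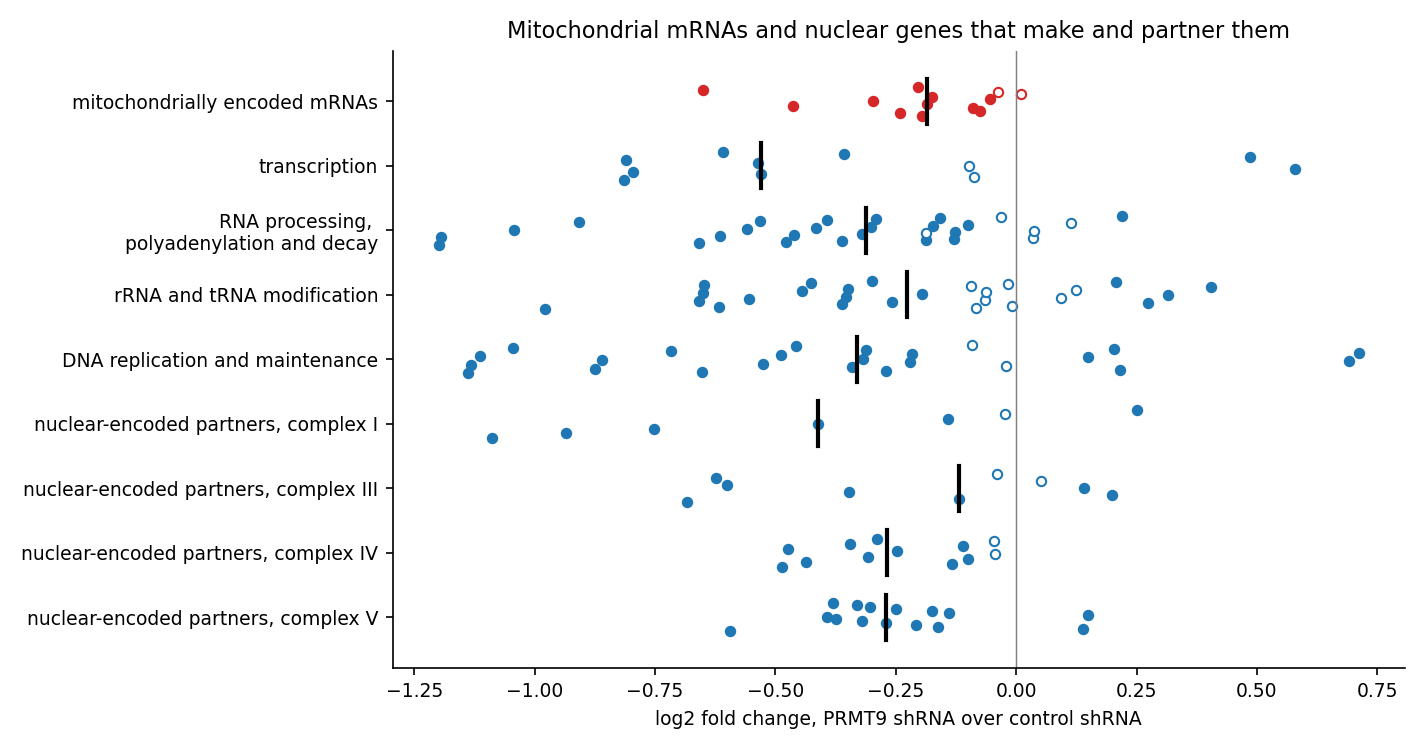
Log2 fold change, PRMT9 shRNA over control shRNA, of the 13 mitochondrial mRNAs and of the tested genes in 8 nuclear lists; black bars are medians and open points did not pass an adjusted p of 0.05. The median of every list lies left of 0, from -0.53 for transcription to -0.12 for complex III, and the mitochondrial mRNAs other than MT-ND6 and MT-ATP8 lie closer to 0 than many of the nuclear genes.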

How the data were processed

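The authors deposited raw read counts per gene and, beside them, RPKM values, per the file headers, for poly(A) RNA-seq of 4 libraries. Per the submitters' processing notes, Trimmomatic 0.39, STAR 2.7.2a and SAMtools 1.10 were used on GRCh38. Which program counted reads, on which strand and with which annotation is not stated in these sources. The treatment of strand and of shared bases was therefore read from nested genes in the table.

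Counts were fitted on the whole table with edgeR 4.0.16 (quasi-likelihood test, TMM scaling, filterByExpr with a minimum count of 10) in R 4.3.3 and adjusted by Benjamini-Hochberg over 15193 genes, which held 99.9% of counts; the code was tested on simulated data. Alternatives were DESeq2 1.42.0, and limma 3.58.1 on log2(RPKM + 1) and log2(RPKM + 0.1). Other scalings and filters, a replicate block and each library left out were further alternatives. A fit with a library left out takes its within-group spread from the other group alone, so a call that it adds is no support. Fold changes are on the log2 scale, PRMT9 shRNA over control shRNA. CPM used TMM-scaled totals of the genes tested. Shares are percentages of all counts of a library.

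The genes and lists were chosen with earlier results of these data known. All mRNAs, rRNAs and tested tRNAs are named, and in each list up to 3 called genes with the lowest adjusted p. POLRMT, TFAM, TFB2M, TEFM, MTPAP, LRPPRC and SLIRP are named whatever their values. MTERF1, MTERF2, MTERF3, MTERF4, MPO and markers at low counts were added after their values were seen. Some genes of the lists are not reported here by name. Between the libraries of a group, counts differed by more than sampling noise (chi-square over degrees of freedom 1.6 for PRMT9 shRNA and 2.91 for control shRNA), so no pair was treated as a library deposited in duplicate; this does not show separate cultures. Sequences are from GENCODE release 29, and all 37 identifiers matched.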

Additional observations from a re-analysis of the deposited data

How the results depend on the processing

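Counts of all genes stayed within 1.5 times of those given, from 3498 to 6239 higher and 4013 to 5246 lower. The number of mitochondrial genes higher was 5 under upper-quartile scaling and under scaling to the 12 heavy-strand mRNAs, and 1 with DESeq2 and on unfiltered log2(RPKM + 1); leaving out a library gave 2 to 4. The number lower was 8 under upper-quartile scaling and 14 on filtered log2(RPKM + 1). It was 5 when scaled to the heavy-strand mRNAs, which sets their common change to 0 by construction. The difference in the mitochondrial share was -0.45 points without the 2 rRNAs, and -0.39 to -0.26 points without a library. Under upper-quartile scaling, which raised the median of all genes by 0.09, the log2 fold change turned to 0.0138 for MT-CO1, 0.0343 for MT-ND3 and 0.0507 for MT-ND5. Under heavy-strand scaling it turned to 0.0523 for MT-CO1, 0.0368 for MT-CO2, 0.0726 for MT-ND3 and 0.0893 for MT-ND5. With 1 library left out, MT-TI ranged from -0.14 to 0.64 and MT-TQ from -1.29 to 0.16. For the other results the cause was not tested. With a replicate block MT-ND6 stood at -0.65 and lost its call (adjusted p 0.118) and no other mitochondrial call changed; the same-numbered libraries share only a number (correlation of deviations -0.0334), and with 2 pairs this says nothing on pairing. Depth limits the tRNAs, 12 of which could not be tested.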
